A study of Mus musculus with 18 samples.

Results

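The genes described are 10 listed non-collagen genes of the stromal extracellular matrix: Postn, Dcn, Lum, Mfap5, Mfap4, Fbn1, Fbln2, Sparc, Bgn and Fn1. They were taken by name, and for each the probe set that was brightest on average across the 18 arrays was used. Of the 10 genes, 9 had a probe set named for them alone, among 18193 genes in all; Fbn1, which encodes the microfibril protein fibrillin-1, was not analysed here. Of these, 7 lay above the filter on low values, a mean of 6.54 on the log2 scale, and were tested among the 10916 genes kept. Lum, with a mean of 5.41, and Mfap4, with a mean of 5.97, lay below it and are given as levels.

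The arrays came from 3 mouse lung carcinoma cell lines, A2C12, betaD5 and cRAF_cMYC, grown out of lung tumours of mice that were 8 months old and carried both a c-myc and a c-raf transgene. All 6 groups share that genotype and culture in medium with 10% fetal calf serum, and the labels name neither the promoter that drives the transgenes nor whether a line is 1 clone. Each line was sorted into side population (SP) cells, which keep little of the DNA dye Hoechst, and nonSP cells, the remaining cells, and each fraction of each line had 3 arrays. The study asked how expression differs between both fractions. The labels do not say whether replicates were separate cultures, so the p-values measure only the spread between these arrays, which may be technical.

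The interstitial matrix is a network of secreted proteins that is laid down mainly by fibroblasts and by other mesenchymal cells. Fibronectin and the elastic microfibrils form its early scaffold, small leucine-rich proteoglycans bind collagen fibrils and limit their thickness, and matricellular proteins such as periostin and SPARC adjust how cells hold on to it. In lung tumours these genes are best known as products of the stroma, although carcinoma cells with mesenchymal traits can also transcribe them.

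For the nonSP array betaD5 1 the closest cRAF_cMYC array had r = 0.982 and the closest betaD5 array of another number 0.926. For the nonSP array cRAF_cMYC 3 the closest betaD5 array had r = 0.988 and the closest array of its own line 0.930. Whether the labels of these pairs were exchanged is in question and cannot be settled from the labels, which bears on every value given for betaD5 and cRAF_cMYC. Lines are named by their labels, and the main line and SP differences are given with and without both pairs. The filter left out 40% of all genes, so counts of cell type markers above it are given only as a description. Of 12 epithelial markers 5 lay above it, among them Epcam and Krt8, whereas Cdh1, Ocln and Esrp1 lay below it. Of the fibroblast markers 12 of 15 lay above it, Thy1 only through 6 arrays. Of the alveolar type II markers 3 of 7 lay above it (Abca3, Sftpb and Slc34a2) and Sftpc and Nkx2-1 below. Of the leukocyte markers 5 of 7 lay above it (Csf1r, Cd14, Cd68, Cd3e and Lyz2) and Ptprc and Itgam below, and of the endothelial markers 1 of 6, Kdr, with Pecam1 and Cdh5 below. Levels are log2 signals after quantile normalization, and probe sets differ in brightness, so a level of 1 gene cannot be set against that of another.

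Sequence was taken for Postn, the member that varied most between arrays, and for Sparc and Bgn, which varied less, to show the DNA upstream of their starts. The 250 bases before each start are from RefSeq (GRCm38.p6), written 5′ to 3′ on the gene's strand, with any motif match in capitals. Postn has 2 annotated starts on the plus strand.
Postn, first start (chr3:54359017-54359266): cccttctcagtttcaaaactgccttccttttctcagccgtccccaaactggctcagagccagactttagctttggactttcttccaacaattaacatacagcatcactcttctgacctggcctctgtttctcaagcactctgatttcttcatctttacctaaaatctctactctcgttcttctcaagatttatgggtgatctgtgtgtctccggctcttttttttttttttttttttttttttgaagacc
Postn, second start (chr3:54360857-54361106): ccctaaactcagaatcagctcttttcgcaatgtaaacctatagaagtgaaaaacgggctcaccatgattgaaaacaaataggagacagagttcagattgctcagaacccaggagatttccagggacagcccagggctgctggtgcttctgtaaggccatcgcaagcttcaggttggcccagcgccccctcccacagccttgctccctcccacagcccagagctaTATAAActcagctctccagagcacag
Sparc, minus strand (chr11:55420081-55420330): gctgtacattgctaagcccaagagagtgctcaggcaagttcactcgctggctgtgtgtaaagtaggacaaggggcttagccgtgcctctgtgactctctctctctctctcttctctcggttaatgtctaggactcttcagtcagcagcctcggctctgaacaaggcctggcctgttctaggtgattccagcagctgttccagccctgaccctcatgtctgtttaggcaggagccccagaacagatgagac
Bgn, plus strand (chrX:73483351-73483600): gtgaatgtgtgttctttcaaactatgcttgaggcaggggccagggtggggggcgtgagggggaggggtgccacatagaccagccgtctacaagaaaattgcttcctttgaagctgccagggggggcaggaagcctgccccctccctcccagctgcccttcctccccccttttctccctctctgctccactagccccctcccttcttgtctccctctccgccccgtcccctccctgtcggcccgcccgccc
The motifs searched on both strands were the TATA box TATAAA, the CCAAT box CCAAT, the AP-1 motif TGANTCA, the TEAD motif GGAATG and the E-box CACGTG. The single match in the 4 windows was a TATA box 26 bases before the second Postn start, so no matches overlapped. Of 32851 promoter windows of the same length, 12.4% held TATAAA, 33.8% CCAAT, 6.75% TGANTCA, 12.6% GGAATG and 6.02% CACGTG. A match is a description of letters and not a site of binding.

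Postn encodes periostin, a matricellular protein that binds integrins and collagen and is made by activated fibroblasts (GRCm38.p6, chr3:54359267-54391041). In A2C12 its level was 5.55, 5.25 and 5.01 in nonSP cells (replicates 1 to 3 throughout) and 5.84, 5.41 and 4.99 in SP cells. In betaD5 it was 9.95, 5.18 and 5.53 in nonSP cells and 9.85, 5.16 and 5.36 in SP cells, and in cRAF_cMYC it was 12.06, 11.08 and 5.57 in nonSP cells and 11.41, 10.01 and 5.65 in SP cells. Postn was thus high on both arrays of cRAF_cMYC 1, cRAF_cMYC 2 and betaD5 1, and the other 12 arrays lay together between 4.99 and 5.84, with no array between both ranges. Its range of 7.07 over the 18 arrays was wider than that of 99.8% of the genes tested, for which the median range was 1.10. The 12 low arrays lay below the level of the filter, 6.54, so Postn was among the genes tested only through the other 6 arrays.

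Mfap5 encodes microfibril associated protein 5, also known as MAGP-2, a small glycoprotein of elastic microfibrils (chr6:122513584-122529290). In A2C12 it lay at 5.85, 5.58 and 5.73 in nonSP and 5.93, 5.26 and 5.41 in SP cells. In betaD5 it lay at 8.76, 5.66 and 5.86 in nonSP and 8.64, 5.51 and 5.84 in SP cells, and in cRAF_cMYC at 9.56, 9.48 and 5.60 in nonSP and 8.70, 8.69 and 5.54 in SP cells. The arrays that were high for Mfap5 were those that were high for Postn, and the remaining 12 again lay together, between 5.26 and 5.93. These 12 were below the level of the filter, so Mfap5 too was tested only through the 6 high arrays. Over the 18 arrays, which fall into clusters by line and pair, the levels of both genes correlated at r = 0.987, given as a description. A second Mfap5 probe set correlated with the first at 0.965.

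Lum encodes lumican, a keratan sulfate proteoglycan that spaces collagen fibrils (chr10:97565501-97572703). In cRAF_cMYC it reached 7.99, 6.37 and 4.78 in nonSP and 8.51, 6.17 and 4.76 in SP cells, and in betaD5 5.82, 4.37 and 4.90 in nonSP and 6.53, 4.43 and 4.79 in SP cells. In A2C12 all 6 arrays lay between 4.36 and 5.16. Lum was highest on the same 6 arrays as Postn and Mfap5, from 5.82 to 8.51, and its mean over all arrays nevertheless fell below the filter.

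Dcn encodes decorin, a small leucine-rich proteoglycan that coats collagen fibrils and binds TGF-beta (chr10:97479500-97518163). Its level in A2C12 was 11.45, 9.56 and 8.47 in nonSP cells and 9.37, 10.17 and 8.45 in SP cells. In betaD5 it was 13.46, 12.22 and 11.64 in nonSP and 13.54, 11.34 and 12.17 in SP cells, and in cRAF_cMYC 13.58, 13.17 and 12.58 in nonSP and 13.44, 13.01 and 12.64 in SP cells. Dcn was graded where Postn was split: A2C12 was lowest, and the nonSP array of A2C12 1, at 11.45, reached into the range of betaD5, whose lowest array stood at 11.34. The range of Dcn over the 18 arrays, 5.14, was wider than that of 99.0% of the genes tested.

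**Figure D1:**
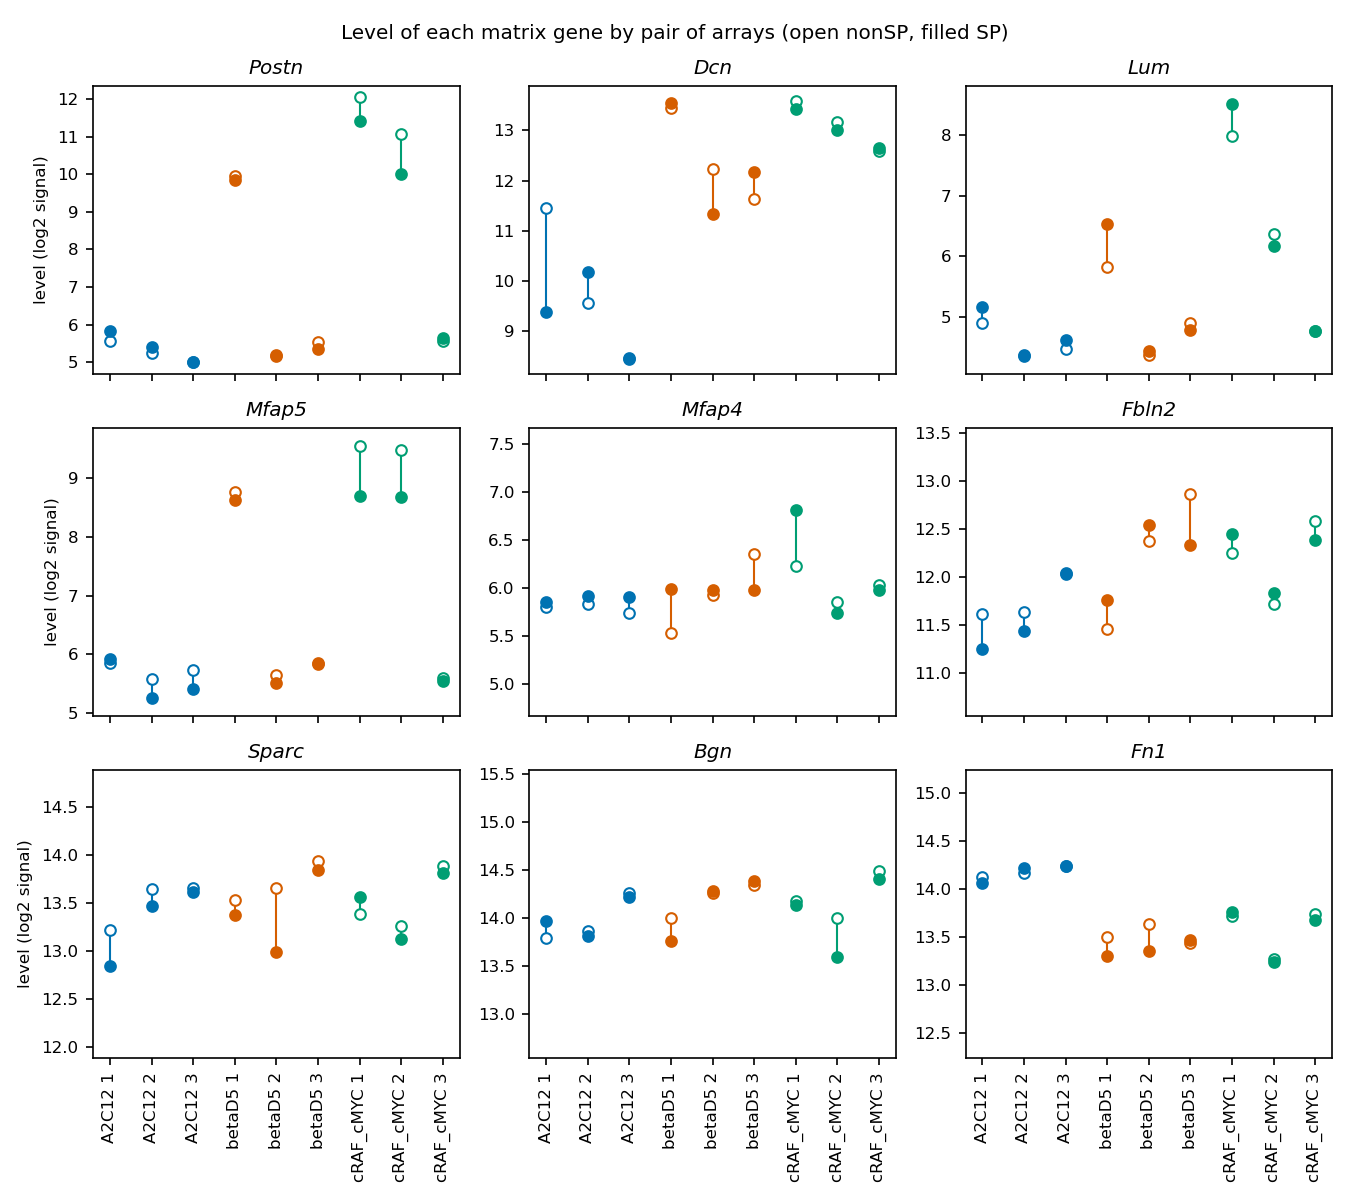
Level of the 9 measured matrix genes (vertical axis, log2 signal after quantile normalization, with its own scale in each panel) in each pair of arrays, by labelled line and replicate number; open circles are nonSP arrays, filled circles SP arrays, and a line joins the 2 arrays of a pair. Postn and Mfap5 are high in cRAF_cMYC 1 and 2 and betaD5 1. Lum is highest in the same pairs, but above the level of the filter only in cRAF_cMYC 1. Dcn is lowest in A2C12, and Fn1 is highest in A2C12.

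Fn1 encodes fibronectin, the integrin-binding glycoprotein on which other matrix proteins assemble (chr1:71585473-71653280). In A2C12 it read 14.12, 14.17 and 14.24 in nonSP and 14.06, 14.22 and 14.24 in SP cells. In betaD5 it read 13.50, 13.64 and 13.44 in nonSP and 13.30, 13.35 and 13.46 in SP cells, and in cRAF_cMYC 13.71, 13.27 and 13.74 in nonSP and 13.76, 13.24 and 13.67 in SP cells. All 6 A2C12 arrays lay above all 12 others, while betaD5 and cRAF_cMYC overlapped.

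Of the remaining members Sparc, Bgn and Mfap4 varied over narrower ranges, and Fbln2 over a wider one. Sparc, which encodes the collagen-binding matricellular protein osteonectin (chr11:55394159-55420080), lay between 12.84 and 13.93 on all arrays, with medians of 13.54 in A2C12, 13.60 in betaD5 and 13.47 in cRAF_cMYC. Bgn, which encodes the proteoglycan biglycan, a close relative of decorin (chrX:73483601-73495936), lay between 13.59 and 14.50. Fbln2, which encodes fibulin-2, a binding partner of elastic fibres and basement membranes (chr6:91212460-91272540), lay between 11.24 and 12.86. The 3 lines overlapped for each of these genes, and the ranges of Fbln2, Sparc and Bgn, 1.62, 1.10 and 0.90, were wider than those of 78.0%, 49.2% and 31.9% of the genes tested. Mfap4, which encodes an elastic fibre glycoprotein (chr11:61485431-61488708), lay between 5.53 and 6.81, and its highest value was the SP array of cRAF_cMYC 1. Decorin and biglycan mRNA did not follow each other, with a correlation between Dcn and Bgn of −0.02 over the 18 arrays, as a description.

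Of 15 fibroblast markers, 6 were higher on the same 6 arrays as Postn, Mfap5, Lum and Dcn, and the others were not. On the 6 arrays of cRAF_cMYC 1, cRAF_cMYC 2 and betaD5 1, Thy1, a surface glycoprotein of fibroblasts, lay between 10.37 and 11.80, and on the other 12 between 5.22 and 5.91. Fap, a surface protease of activated fibroblasts, lay between 9.67 and 10.35 on these 6 and between 3.66 and 4.83 on the others, and Pdgfra, Tagln, Cdh11 and Col3a1 were separated in the same way. Vim, an intermediate filament of mesenchymal cells, was lower on all 6, between 13.81 and 14.18 against 14.23 to 14.54. Acta2, smooth muscle actin, and Col1a1, a chain of collagen I, were also mostly lower there, Acta2 between 11.36 and 12.78 against 12.70 to 14.23 and Col1a1 between 10.87 and 11.60 against 11.56 to 12.82. Of the 6 remaining markers, whose ranges overlapped, Tcf21 was mostly lower too. The mean of all 15 markers ranged from 11.03 to 11.37 on the 6 arrays and from 9.70 to 10.07 on the others. The mean of 7 leukocyte markers was lower on all 6, between 6.43 and 6.56, and between 6.89 and 7.35 on the others. These markers did not vary alike. Csf1r ran from 7.13 to 10.70 over all arrays, whereas Ptprc and Itgam stayed low throughout, at most 4.30 and 4.64. Without the pairs betaD5 1 and cRAF_cMYC 3, Csf1r was 3.00 and Cd68 0.36 higher in A2C12 than in cRAF_cMYC nonSP cells. The means of the epithelial, alveolar type II, endothelial and mesothelial markers overlapped. These arrays were singled out after their values were seen, so no test is given. Of all genes tested, 5.06% had all 6 arrays above the other 12, as did 3 of the 7 members tested (Postn, Dcn and Mfap5). The 6 arrays are those on which Postn was high, and Postn and Mfap5 were tested only through them. Nothing is therefore read from the count of members. In such bulk samples more cells of a type and more RNA per cell cannot be told apart, and the part of the fibroblast and leukocyte markers in the levels of these genes was not tested.

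**Figure D2:**
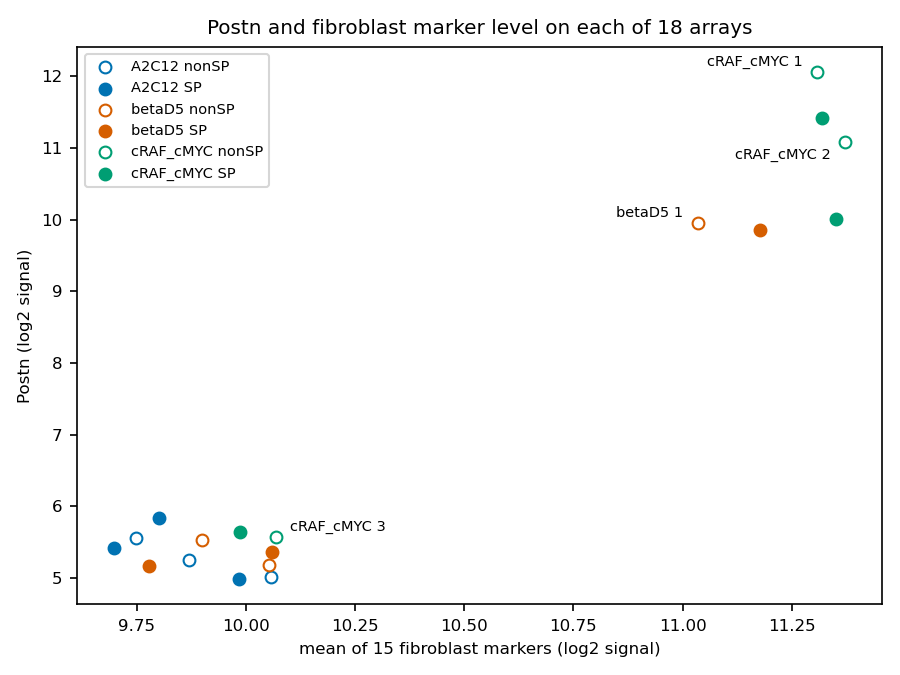
Postn level (vertical axis, log2 signal) against the mean of 15 fibroblast markers (horizontal axis, log2 signal) on each of the 18 arrays, coloured by labelled line, with open circles for nonSP and filled circles for SP and replicate numbers beside the nonSP arrays of cRAF_cMYC and of betaD5 1. The arrays of cRAF_cMYC 1, cRAF_cMYC 2 and betaD5 1 lie together at the upper right, with marker means from 11.03 to 11.37, and the other 12 at the lower left.

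Between the lines, decorin mRNA was lower and fibronectin mRNA higher in A2C12 than in either other line. Among nonSP cells, 2 of the 7 members tested passed limma's test at a Benjamini-Hochberg adjusted p under 0.05 against betaD5, where 28.8% of all genes did, and the same number against cRAF_cMYC, where 22.3% did. In each case 1 member was higher, beside 13.2% and 10.4% of all genes, and 1 lower, beside 15.6% and 12% of all genes. The share of members called was therefore near the background. Nothing more is read from these counts, since the 7 include Postn and Mfap5, which were tested only through their high arrays. Among SP cells the count was again 2 of 7 in each comparison, beside 28.5% and 24.7% of all genes, with 1 higher (13% and 11.4% of all genes) and 1 lower (15.6% and 13.3%). Both comparisons share the A2C12 arrays. The median difference of the 7 members was −0.47 against betaD5 and −0.42 against cRAF_cMYC in nonSP cells, beside −0.04 and −0.03 over all genes. These medians include Postn and Mfap5 as well and are a description.

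Dcn in nonSP cells averaged 9.82 ± 1.51 (SD, n = 3) in A2C12, 12.44 ± 0.93 in betaD5 and 13.11 ± 0.50 in cRAF_cMYC. It was 6.12-fold lower in A2C12 than in betaD5 (log2 difference −2.61, SE 0.70; limma, adjusted p = 0.0114) and 9.78-fold lower than in cRAF_cMYC (−3.29, SE 0.70; limma, adjusted p = 0.00333). In SP cells the differences were −3.02 (limma, adjusted p = 0.00467) and −3.70 (limma, adjusted p = 0.00136). A second, dimmer Dcn probe set was also lower in A2C12, by differences of −2.03 and −2.56 in nonSP cells, and followed the first over the arrays at r = 0.950. Without the nonSP array of A2C12 3 the difference from betaD5 in nonSP cells was −1.93 and no longer passed (limma, adjusted p = 0.0667). Without the pairs betaD5 1 and cRAF_cMYC 3, Dcn stayed lower in A2C12 nonSP cells, by −2.10 and −3.55 (limma, adjusted p = 0.0211 and 0.00128), and in SP cells by −2.43 and −3.90 (limma, adjusted p = 0.00929 and 0.000651).

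Fn1 in nonSP cells averaged 14.18 ± 0.06 (SD, n = 3) in A2C12, 13.52 ± 0.10 in betaD5 and 13.57 ± 0.27 in cRAF_cMYC. It was 1.57-fold higher in A2C12 than in betaD5 (0.65, SE 0.14; limma, adjusted p = 0.0023) and 1.52-fold higher than in cRAF_cMYC (0.60, SE 0.14; limma, adjusted p = 0.00479). In SP cells the differences were 0.80 and 0.62 (limma, adjusted p = 0.000495 and 0.00389). On the values as deposited these calls were lost: the nonSP differences were 0.06 and 0.23 (limma, adjusted p = 0.734 and 0.221). On that scale the median gene itself was lower in A2C12 nonSP cells, by −0.71 against betaD5 and −0.45 against cRAF_cMYC, so Fn1 was higher relative to the median gene on both scales. With array medians brought to 1 value the differences were 0.75 and 0.61 and passed (limma, adjusted p = 0.0022 and 0.0106). A second, much dimmer Fn1 probe set did not follow the first over the arrays (r = −0.04), and with the mean of both the nonSP differences did not pass (limma, adjusted p = 0.0923 and 0.0638). Without the pairs betaD5 1 and cRAF_cMYC 3 the differences on the chosen probe set were 0.64 and 0.69 in nonSP cells (limma, adjusted p = 0.00441 and 0.00387) and 0.77 and 0.67 in SP cells (limma, adjusted p = 0.00119 and 0.00425).

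For Postn and Mfap5 the call depended on which pairs were included. As labelled, the Postn difference between A2C12 and cRAF_cMYC in nonSP cells was −4.30, but with an SE of 1.76 it did not pass (limma, adjusted p = 0.0941), and that of Mfap5 was −2.49 with an SE of 1.13 (limma, adjusted p = 0.129). Postn was called without the nonSP array of cRAF_cMYC 3 (−6.30), without the pair betaD5 1 and on the values as deposited (−4.71). Mfap5 was called without the nonSP array of cRAF_cMYC 3 (−3.80). No p is given for these calls and nothing is read from them, since both genes were tested only through their high arrays. Without the pairs betaD5 1 and cRAF_cMYC 3, which leaves 2 arrays in each group of those lines, the difference of A2C12 from cRAF_cMYC in nonSP cells was −6.30 (SE 0.38) for Postn and −3.80 (SE 0.21) for Mfap5. That of betaD5 from cRAF_cMYC was −6.21 (SE 0.42) for Postn and −3.76 (SE 0.23) for Mfap5. In SP cells the differences from cRAF_cMYC were −5.30 and −3.17 for A2C12 and −5.45 and −3.02 for betaD5, in the same order of genes. Between A2C12 and betaD5 nonSP cells they were −0.08 for Postn (95% interval −0.91 to 0.74) and −0.04 for Mfap5 (−0.48 to 0.41). These values are a description with no p: the low arrays lie below the level of the filter, and both genes were tested only through the arrays on which they were high. With both pairs left out, 4 of 7 members were called between A2C12 and cRAF_cMYC in each fraction, beside 32% of all genes in nonSP and 33.5% in SP cells. Between betaD5 and cRAF_cMYC 2 of 7 were, Postn and Mfap5, beside 21.4% and 19.5%. Nothing is read from these counts, since they include genes let in by their high group. The pairs were left out for their whole-array correlation with another line, and their Postn and Mfap5 levels are among the values behind it.

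Between betaD5 and cRAF_cMYC as labelled, 0 of the 7 members passed in either fraction, as did 0% of all genes by limma, with 2.67% of genes at an unadjusted p under 0.05 in nonSP and 0.953% in SP cells. Sparc, Bgn and Fbln2 did not pass between any of the lines as labelled, and for Sparc the nonSP difference of A2C12 from cRAF_cMYC was 0.00 with a 95% interval from −0.54 to 0.53. For Fbln2, leaving out both pairs gave a lower level in A2C12 than in betaD5, by −0.86 in nonSP cells and −0.87 in SP cells (limma, adjusted p = 0.0177 and 0.0157), where 42% and 43.1% of all genes passed. On the values as deposited Fbln2, Bgn and Sparc were also called lower in A2C12 than in betaD5 nonSP cells, by −1.19, −0.80 and −0.83 (limma, adjusted p = 0.00442, 0.00577 and 0.0148), beside the median gene's −0.71. Against cRAF_cMYC nonSP cells Bgn and Fbln2 were called lower on that scale, by −0.65 and −0.89 (limma, adjusted p = 0.0333 and 0.0385), beside the median gene's −0.45. A second, dimmer Fbln2 probe set, with a mean of 7.79, ran against the first over the arrays (r = −0.53). After quantile normalization of all arrays its nonSP difference was 0.26 from betaD5 and −0.02 from cRAF_cMYC. The lower Fbln2 level in A2C12 thus rests on the chosen probe set.

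**Figure D3:**
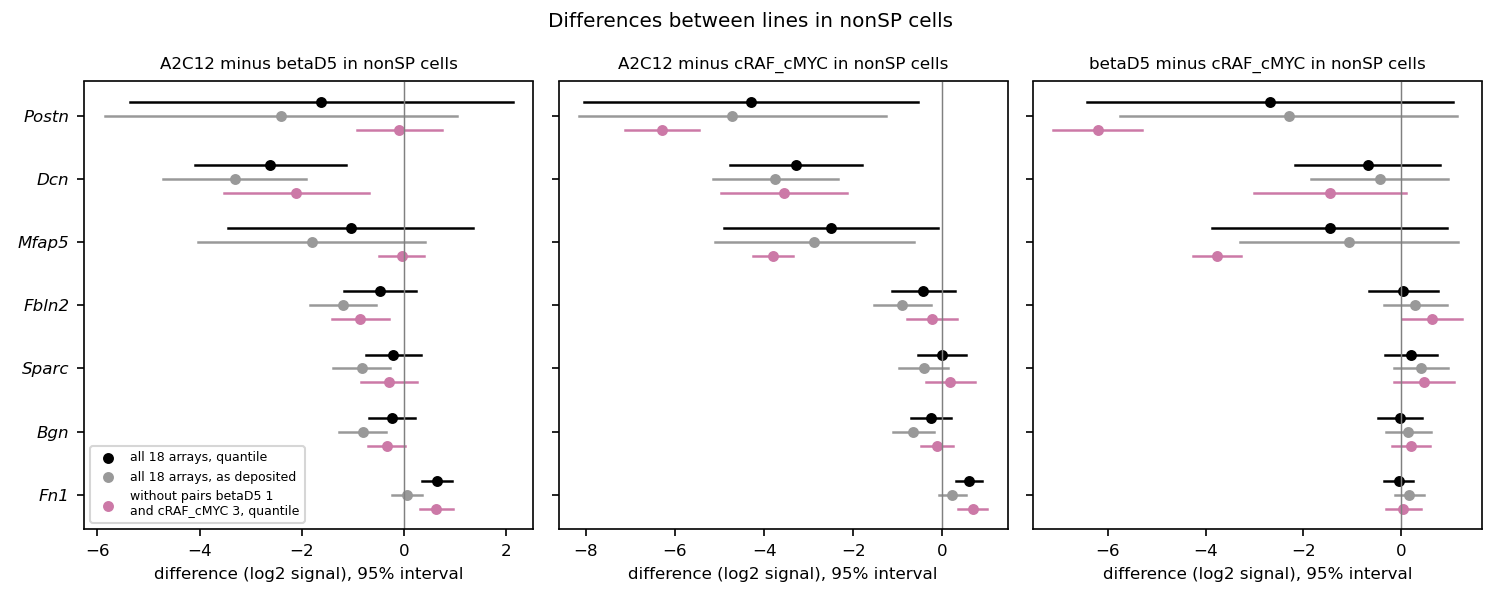
Differences between lines in nonSP cells (horizontal axis, log2 signal) with 95% intervals for the 7 members tested, from all 18 arrays after quantile normalization (black), from all 18 arrays as deposited (grey), and without the pairs betaD5 1 and cRAF_cMYC 3 (pink). The intervals of Postn and Mfap5 are wide with all arrays and narrow without these pairs, and Fn1 lies nearer to 0 on the deposited values.

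Between SP and nonSP cells no member passed the test, although single pairs differed by as much as −2.08 (Dcn in A2C12 1). In each line and in the mean of the 3 lines, 0 of the 7 members passed limma's test at an adjusted p under 0.05, as did 0% of all genes. At an unadjusted p under 0.05 stood 0.0824% of all genes in A2C12, 1.04% in betaD5, 0.705% in cRAF_cMYC and 1.31% in the mean, and none of the members. The median difference of the members in the mean of the 3 lines was −0.17, beside 0.00 over all genes. Among these members Postn and Mfap5 each lay below the level of the filter on 12 arrays. The differences between lines in the SP effect gave 0 members and 0% of all genes as well (at an unadjusted p 0.174%, 0.229% and 0.0824% of genes). When each pair was made a block in the fit, 0 members and 0% of genes passed in each of these comparisons.

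Mfap5 was lower in SP cells in 8 of 9 pairs of the same line and number. Its pair differences were 0.08, −0.33 and −0.32 in A2C12, −0.12, −0.15 and −0.02 in betaD5 and −0.86, −0.79 and −0.06 in cRAF_cMYC. The difference was widest in cRAF_cMYC 1 and 2, pairs in which Mfap5 was high in both fractions. In 6 of the 9 pairs, those of A2C12, betaD5 2 and 3 and cRAF_cMYC 3, both arrays lay below the level of the filter, so 5 of the 8 negative signs are differences between such values. Of all genes tested, 4.1% were lower in SP cells in at least 8 of 9 pairs. With the block, the difference in cRAF_cMYC was −0.57 (SE 0.15, adjusted p = 0.427 by limma), and in the mean of the lines −0.28 (SE 0.09, adjusted p = 0.28 by limma). These SEs pool the spread of all 9 pairs, most of them below the level of the filter. No unadjusted p is given, since Mfap5 was tested only through its high arrays. Without the pairs betaD5 1 and cRAF_cMYC 3 the blocked differences were −0.82 and −0.37 (limma, adjusted p = 0.258 and 0.197). The second Mfap5 probe set was lower in SP cells in 2 of 9 pairs, with a mean difference of 0.00, although it too was lower in cRAF_cMYC on average, by −0.29.

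Sparc was also lower in SP cells in 8 of 9 pairs. Its differences were −0.38, −0.18 and −0.04 in A2C12, −0.15, −0.67 and −0.09 in betaD5 and 0.17, −0.14 and −0.07 in cRAF_cMYC. The widest was betaD5 2, where the Gapdh 3′ minus 5′ difference, a measure of RNA and cDNA length, rose by 0.66 from the nonSP to the SP array. In betaD5 3 it rose by 0.93, and there Sparc differed by −0.09. The same difference for Actb rose by 0.88 in betaD5 2 and by 0.79 in betaD5 3. The cause of the Sparc differences was not tested. With the block the mean difference was −0.17 (SE 0.06; limma, adjusted p = 0.313), and in betaD5 it was −0.31 (SE 0.11; limma, adjusted p = 0.396). With the mean of the Gapdh and Actb 3′ to 5′ differences as a covariate they were −0.16 and −0.27 (limma, adjusted p = 0.315 and 0.509), and without the pairs betaD5 1 and cRAF_cMYC 3 they were −0.19 and −0.38 (limma, adjusted p = 0.384 and 0.204). The other Sparc probe sets were lower in SP cells in 4 and 3 of 9 pairs.

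Postn differed by −0.64 and −1.07 in cRAF_cMYC 1 and 2, where it was high, and by 0.08 in cRAF_cMYC 3, where it was low. In betaD5 its differences were −0.10, −0.02 and −0.17, and in A2C12 they were 0.29, 0.16 and −0.02. The pair betaD5 1 had high Postn in both fractions and yet a difference of −0.10. With the block the difference in cRAF_cMYC was −0.55 (SE 0.17, adjusted p = 0.534 by limma), and without the pairs betaD5 1 and cRAF_cMYC 3 it was −0.86 (limma, adjusted p = 0.258). For Postn too, both arrays lay below the level of the filter in 6 of 9 pairs, and the SE pools the spread of all pairs. No unadjusted p is given, since Postn was tested only through its high arrays.

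Dcn varied most between pairs. Its differences were −2.08, 0.61 and −0.02 in A2C12, 0.09, −0.88 and 0.53 in betaD5 and −0.15, −0.16 and 0.05 in cRAF_cMYC. They went both ways, lower in 5 of 9 pairs, and the A2C12 mean of −0.50 rested on A2C12 1: without both arrays of that pair it was 0.29. The second Dcn probe set gave −0.16 in A2C12.

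The other members were lower in SP cells in 6 of 9 pairs for Bgn, 5 for Fbln2, 5 for Fn1, 4 for Lum and 3 for Mfap4. Fn1 was the steadiest, with pair differences between −0.29 and 0.05. For Bgn they ran from −0.41 to 0.17, for Fbln2 from −0.53 to 0.30, for Lum from −0.20 to 0.71 and for Mfap4 from −0.38 to 0.58. In cRAF_cMYC 1 and 2, the pairs with the widest differences of Postn and Mfap5, Lum went from 7.99 to 8.51 and from 6.37 to 6.17.

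**Figure D4:**
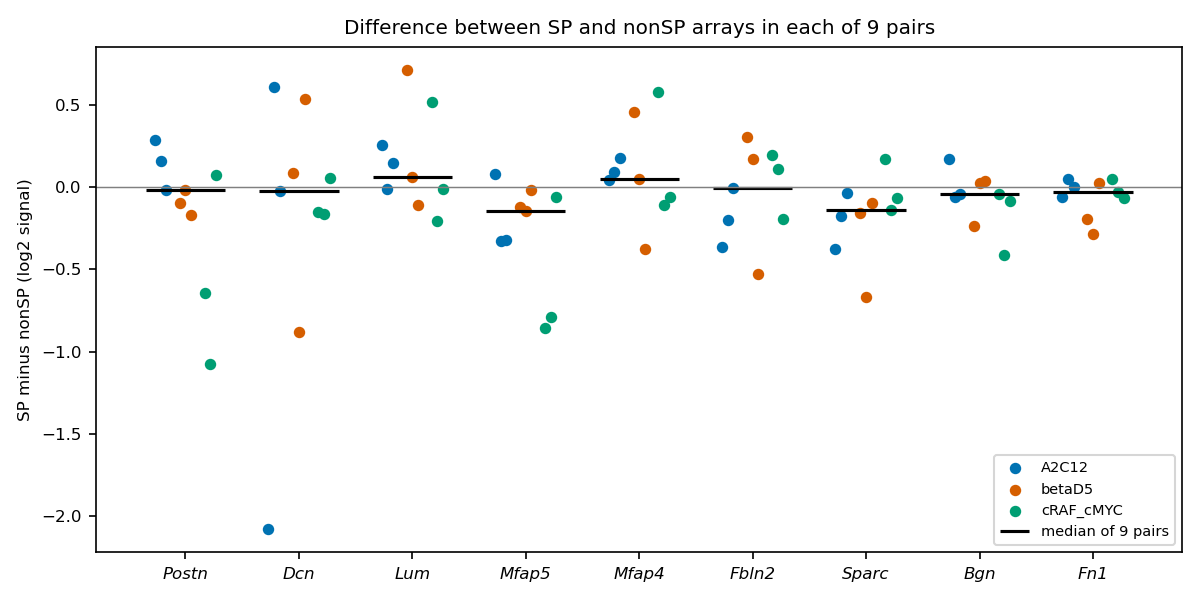
SP minus nonSP difference (vertical axis, log2 signal) of each of the 9 measured genes in each of 9 pairs, coloured by labelled line, with a black bar at the median of the 9 pairs. Mfap5 and Sparc lie below 0 in 8 of 9 pairs, and the lowest point is Dcn in A2C12 1, at −2.08.

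**Figure D5:**
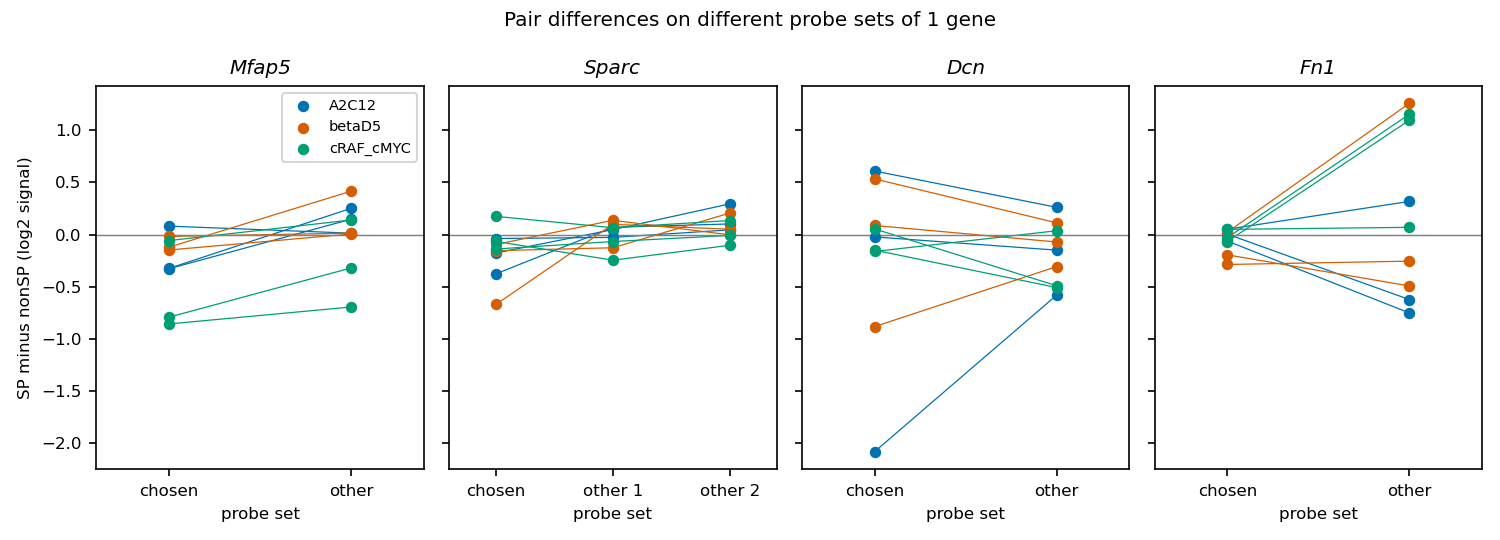
SP minus nonSP difference (vertical axis, log2 signal) in each of 9 pairs on the chosen probe set and the other probe sets of Mfap5, Sparc, Dcn and Fn1 (horizontal axis); lines join the same pair and colours are the labelled lines. For Mfap5 and Sparc 8 of 9 pairs lie below 0 on the chosen probe set, and 2, or 4 and 3, on the others.

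Other matrix genes are given from 4 lists, each count beside the shares of all genes, which against betaD5 were 13.2% higher and 15.6% lower and against cRAF_cMYC 10.4% higher and 12% lower. Of 30 tested genes in a list of other non-collagen matrix genes, 5 were higher and 4 lower in A2C12 than in betaD5 nonSP cells, and 4 higher and 5 lower than in cRAF_cMYC, near those shares. Without the pairs betaD5 1 and cRAF_cMYC 3 the counts were 11 and 5, and 7 and 12. In those fits 42% and 32% of all genes were called, higher and lower together. Ccn2, which encodes the matricellular protein CTGF, was lower in A2C12 than in betaD5 by −3.18 (limma, adjusted p = 0.00199), and Fbln5, which encodes an elastic fibre fibulin, by −2.95 (limma, adjusted p = 0.0122). Prelp, another leucine-rich repeat proteoglycan, was higher, by 1.94. On all betaD5 and cRAF_cMYC arrays Prelp lay below the level of the filter. It was tested only through the A2C12 arrays, so no p is given and its call is not read. Ogn, which encodes the small leucine-rich protein osteoglycin, was lower in A2C12 than in cRAF_cMYC by −2.38 (limma, adjusted p = 0.000886). Without both pairs these differences were −3.31 for Ccn2, −3.73 for Fbln5, 1.99 for Prelp and −2.03 for Ogn. Those of Ccn2, Fbln5 and Ogn still passed.

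Among 16 tested enzymes that assemble or trim the matrix, 4 were higher and 1 lower in A2C12 than in betaD5 nonSP cells, and 5 higher and 2 lower than in cRAF_cMYC. Adamts5, a protease of proteoglycans, was the lowest, by −5.22 and −4.42. It lay between 5.42 and 5.77 in A2C12, below the level of the filter. No p is given for Adamts5, since it was tested only through the other lines. P3h2, a prolyl 3-hydroxylase, was the highest, by 3.17 and 3.07 (limma, adjusted p = 2.58e-05 and 4.39e-05). Of 15 matrix proteases and inhibitors, 1 was higher and 3 lower than in betaD5, and 0 higher and 3 lower than in cRAF_cMYC. Among the lower was Mmp23, by −4.30 and −4.33, and by −4.46 and −4.04 without both pairs. In A2C12 it lay between 5.91 and 6.46, below the level of the filter. Since Mmp23 was tested only through the other lines, no p is given for it. Mmp2, a gelatinase of mesenchymal cells, was lower by −2.30 and −2.78 (limma, adjusted p = 1.34e-05 and 2.4e-06). Of 15 matrix receptors, 5 were higher and 1 lower than in betaD5, and 3 higher and 1 lower than in cRAF_cMYC. Itgb3, the integrin beta 3 subunit of a receptor for fibronectin and periostin, was higher by 3.75 and 3.16 (limma, adjusted p = 3.62e-05 and 0.000204). Without both pairs the differences were −5.35 and −3.77 for Adamts5, 3.33 and 2.69 for P3h2, −2.23 and −2.90 for Mmp2 and 4.18 and 2.73 for Itgb3. Those of P3h2, Mmp2 and Itgb3 still passed. The counts between lines in these 4 lists include genes let in by their high lines, such as Prelp, Adamts5 and Mmp23. Nothing is read from these counts. In the SP comparisons 0 genes of these 4 lists passed, as did 0 of all genes.

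Markers of mesothelial cells, which line the pleura and also make matrix, also differed between the lines. In A2C12 nonSP cells 5 of 6 were lower than in either other line, with all arrays and without both pairs. With all arrays 15.6% and 12% of all genes were. The other marker, Krt19, was higher than in cRAF_cMYC, by 1.51, and was not called. Gpm6a, Lrrn4 and Upk3b fell as low as 3.30, 3.97 and 4.31, below the level of the filter. The count thus includes genes let in by their high lines, and nothing is read from it. The mean of the 6 markers ranged from 6.16 to 6.52 on the A2C12 arrays and from 9.63 to 11.76 on the others. Their part in the differences of Dcn and Fn1 was not tested. The 5 genes outside the lists whose levels were most like the mean standardized profile of the 7 members over the 18 arrays were Srrm2 (Pearson r = 0.866), Cuedc2 (0.864), Col16a1 (0.854), 1810058I24Rik (0.849) and Scamp2 (0.847), given as a description of arrays that share lines and pairs.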

How the data were processed

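Each probe set has 1 deposited log2 signal on each array, which the authors made with Affymetrix Expression Console, per the submitters' processing notes; its version, summary algorithm and normalization are not given in the sources used here. Per the labels' protocols, 200 ng of total RNA gave 10 µg of biotin-labelled cRNA for each of 18 arrays. Array medians of the deposited log2 values ran from 5.80 to 6.72, so the arrays did not share 1 distribution. With 3 arrays in each group the number of arrays limits the precision. The median 95% half-width of a difference within 1 line was 0.45 (log2) without pairing and 0.25 with it.

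Control probe sets (64 of 45101) were left out and the rest quantile normalized. Of the others, 34945 carried 1 gene symbol, 932 several and 9160 none; symbols were updated through the gene identifier. Genes in the lowest 40% by mean level were not tested. One limma fit (limma 3.58.1, R 4.3.3; 6 group means, eBayes with a trend, 12 residual degrees of freedom) gave 13 two-sided comparisons with Benjamini-Hochberg adjustment over all genes. It was tested on simulated data.

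Deviations of same-numbered arrays from their group means correlated at 0.425 to 0.954 in all 9 pairs, and 8 of 9 nonSP arrays correlated best with their own number (betaD5 3 had 0.602, and 0.680 with another number). The numbers were therefore taken to pair the arrays, which the labels do not state. Alternatives were other scalings, filters, probe set rules, blocks and arrays left out. The members and lists were chosen with earlier results of these data known. Named genes were the members, their probe sets, up to 3 genes of each list past the threshold with the largest difference (where none did, the 2 of smallest p), and the 5 genes most like the members.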

Additional observations from a re-analysis of the deposited data

How the results depend on the processing

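Counts of members past the threshold, 2 of 7 in each A2C12 comparison, moved as follows. On the values as deposited 4 members passed against betaD5 in nonSP and in SP cells, and 4 against cRAF_cMYC in nonSP cells. With the mean of all probe sets 1 passed in each of the 4 comparisons. Without the pairs betaD5 1 and cRAF_cMYC 3, 4 passed against cRAF_cMYC in both fractions, and 2 between betaD5 and cRAF_cMYC in both, with Postn and Mfap5 among them, which were tested only through their high arrays. All-gene counts against betaD5 became 6028 (nonSP) and 6249 (SP) on the deposited values, from 3144 and 3115, and 4710 in SP cells without both pairs, while betaD5 against cRAF_cMYC became 2338 (nonSP) and 2125 (SP), from 0. The share of all-gene calls that were higher in A2C12 nonSP cells was 46.0% and 46.3% (against betaD5 and cRAF_cMYC), 3.83% and 8.03% as deposited, and 45.5% and 38.0% with centred medians; in SP cells it was 45.5% and 46.1%, 3.31% and 7.66%, and 32.2% and 29.5%. Leaving out 1 array or pair at a time gave 1 to 3 members against betaD5 (nonSP), 2 to 3 (SP), and 2 to 4 against cRAF_cMYC in both fractions, and all-gene counts of 2003 to 3570 (nonSP) and 2010 to 3856 (SP) against betaD5, 1493 to 2930 (1599 to 2652 for single arrays) and 1745 to 3190 against cRAF_cMYC, and 0 to 4 between betaD5 and cRAF_cMYC nonSP cells. The counts furthest down came without the pair A2C12 3 (2003 and 2072 against betaD5, 1493 and 1745 against cRAF_cMYC), A2C12 2 (1561, nonSP) and betaD5 3 (2010, SP). The count of 4 members came without cRAF_cMYC 3, and that of 4 genes without betaD5 1.

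The replicate block called 0 members and 0 genes in every SP comparison (by limma, 201 genes in A2C12, 1162 in betaD5, 867 in cRAF_cMYC and 1367 in the mean had an unadjusted p under 0.05). For Mfap5 in cRAF_cMYC its difference was −0.57. Of all genes it called 16 in betaD5 without the pairs betaD5 1 and cRAF_cMYC 3, and with the 3′ to 5′ difference as a covariate 12 in betaD5 and 1 in the mean of the lines. As a random effect between lines, the block brought Postn past the threshold for A2C12 against cRAF_cMYC in nonSP cells. It changed no other call of Dcn, Fn1, Postn or Mfap5. No p is given for Postn, which was tested only through its high arrays.

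Differences that did not pass changed sign. Fn1 between betaD5 and cRAF_cMYC nonSP cells was −0.05 and became 0.17 as deposited, 0.081 with the mean of probe sets, 0.048 without both pairs, 0.021 without cRAF_cMYC 1 and 0.034 without cRAF_cMYC 3 (−0.20 to 0.034 over single arrays and pairs); in SP cells it was −0.19 and became 0.048 as deposited. Postn between A2C12 and betaD5 SP cells was −1.38 and became 0.15 without both pairs (−2.19 to 0.15 leaving out 1). Over the same omissions, the unpaired SP difference in cRAF_cMYC ran from −2.55 to 1.14 for Postn and from −1.87 to 0.48 for Mfap5, that of Mfap5 in the mean of the lines from −0.72 to 0.066, and that of Dcn in A2C12 from −1.18 to 0.31 (0.29 without the pair A2C12 1). The cause of these changes was not tested.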
